A study of Mus musculus with 8 samples.

Results

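The mitochondrial ADP/ATP carriers of the mouse are *Slc25a4* (Ant1), *Slc25a5* (Ant2) and *Slc25a31* (Ant4). Their transcripts were measured at E18.5 in 8 embryonic hearts, 5 wild-type and 3 2lox/2lox. All probe sets that the platform annotation assigns to 1 of these genes alone were taken, which gave 13 of 45101 probe sets on the Affymetrix Mouse430 array, 1 for *Slc25a31*, 4 for *Slc25a4* and 8 for *Slc25a5*. Each probe set combines several short probes against 1 transcript, and no probe set was removed for a low value. The carriers were chosen by a measured value, since *Slc25a31* ranked 1 of all 45101 probe sets by its log2 difference in these same hearts, and the *Slc25a31* values are therefore given as a description with no test. The wild-type embryos carried the unaltered *Kdm1a* (*Aof2*) gene, which encodes the histone demethylase Lsd1. The 2lox/2lox embryos were homozygous for the unrecombined floxed allele, which carries loxP sites in introns and a pair of point mutations in the tower domain, so that a hypomorphic Lsd1 was still made although the labels also use the word knock-out. The genotypes were compared among littermates, but which embryos shared a litter, their strain and their sex were not stated in the sources at hand. Each sample had 1 array and is called a heart here, although the labels do not say outright that every sample was a single heart.

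ADP/ATP carriers sit in the inner mitochondrial membrane and exchange ADP from the cytosol for ATP made in the matrix. *Slc25a4* is the form typical of heart and skeletal muscle, *Slc25a5* is expressed in most tissues and in dividing cells, and *Slc25a31* is a retained gene copy used mainly in germ cells of the testis, where the X-linked *Slc25a5* is silenced during meiosis. In somatic tissues *Slc25a31* is normally kept silent.

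Levels are on the log2 scale as the authors deposited them, and the array medians ran from 5.03 to 5.10. *Kdm1a* read 9.44 to 9.55 in 2lox/2lox and 10.26 to 10.36 in the wild-type hearts. Over the whole array 36 probe sets passed a limma adjusted p of 0.05, which is 0.0798% of those tested. RNA quality was read from the control probe sets of *Actb* and *Gapdh*, whose 3′ end exceeded the 5′ end by a log2 difference. This was 0.52, 0.50 and 0.33 in 2lox/2lox hearts 1, 2 and 3, against 0.32 to 0.38 in wild-type hearts. The control probe set for the 5′ end of 18S RNA read 8.45 to 9.07 in 2lox/2lox and 9.55 to 11.49 in wild-type hearts. These ranges do not overlap, the 18S reading was in no fit, and its part in the other differences was not tested. *Xist*, the RNA of the inactive X chromosome of females, was high only in 2lox/2lox heart 3 and wild-type heart 2, at 10.88 and 10.59.

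The promoter windows of the 3 genes are shown because 1 of the genes was raised and the others are its counterparts in the normal heart. The sequences were taken from RefSeq (GRCm38.p6), where all 3 genes had an entry, and each run covers 280 bases, read 5′ to 3′ on the strand of the gene and with most of its length before the annotated start. The lines show *Slc25a31* at chr3:40708621-40708900 (plus strand), *Slc25a4* at chr8:46211033-46211312 (minus strand) and *Slc25a5* at chrX:36795347-36795626 (plus strand). Capitals mark the letters TCCCGC, the core read by E2F factors, and CACGTG, an E-box read by dimers of MAX.
Slc25a31: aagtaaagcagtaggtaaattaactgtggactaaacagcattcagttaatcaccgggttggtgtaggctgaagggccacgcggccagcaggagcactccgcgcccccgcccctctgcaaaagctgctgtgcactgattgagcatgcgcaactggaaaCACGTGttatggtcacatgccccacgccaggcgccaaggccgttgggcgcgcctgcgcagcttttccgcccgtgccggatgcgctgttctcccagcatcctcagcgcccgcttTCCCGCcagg
Slc25a4: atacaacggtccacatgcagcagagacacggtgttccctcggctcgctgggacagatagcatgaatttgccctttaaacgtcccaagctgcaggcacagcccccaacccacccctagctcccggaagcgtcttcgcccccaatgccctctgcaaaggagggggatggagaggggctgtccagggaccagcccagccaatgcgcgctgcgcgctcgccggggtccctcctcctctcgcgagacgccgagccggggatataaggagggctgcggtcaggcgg
Slc25a5: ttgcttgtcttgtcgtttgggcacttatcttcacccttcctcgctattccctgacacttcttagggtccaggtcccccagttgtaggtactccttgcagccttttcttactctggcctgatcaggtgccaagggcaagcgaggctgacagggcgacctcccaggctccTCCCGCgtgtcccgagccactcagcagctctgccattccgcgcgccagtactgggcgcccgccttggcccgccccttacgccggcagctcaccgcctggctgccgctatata

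In the *Slc25a31* window TCCCGC lies at bases 21 to 26 after the start and CACGTG from 93 bases before the start. *Slc25a5* holds TCCCGC from 82 bases before the start, and *Slc25a4* holds neither run of letters. Both strands of the full windows of 300 bases were searched, and the marked runs do not overlap. TCCCGC occurs in 20% of the 32851 promoter windows of the RefSeq table, CACGTG in 7.15% and both together in 1.99%. The E-box was added to the search after the sequence had been seen. The windows of *Slc25a31*, *Slc25a4* and *Slc25a5* hold 22, 25 and 18 CpG dinucleotides, against a median of 7 over all windows. Of all windows 76.9%, 81.6% and 70.3% hold fewer, so such counts are common among promoters. These matches are descriptions of the letters, and no binding or methylation was measured in these hearts.

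*Slc25a31*, the testis form, was much higher in the 2lox/2lox hearts than in the wild-type hearts. Its single probe set, 1453133_at, had log2 levels of 8.14, 8.78 and 7.58 in 2lox/2lox hearts 1, 2 and 3. In wild-type hearts 1 to 5 it read 5.13, 4.10, 5.26, 6.04 and 4.13. The groups did not overlap, and the lowest 2lox/2lox heart lay 1.53 log2 units, or 2.90-fold, above the highest wild-type heart. The group means were 4.93 ± 0.83 (SD, n = 5) and 8.17 ± 0.60 (SD, n = 3), a log2 difference of 3.23, or 9.40-fold. As this separation is what brought the gene into view, it is not set against the 3.41% of all probe sets in which every 2lox/2lox heart lay above every wild-type heart.

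The wild-type hearts themselves were unequal in *Slc25a31*. Wild-type hearts 2 and 5 read below the lower quartile of all values on the arrays, 4.21, and no detection call was used that would tell such values from background, while wild-type heart 4 was 3.85-fold above the lowest. The wild-type SD of 0.83 compares with a median of 0.10 over all probe sets, and 99.9% of all probe sets had a smaller wild-type SD. Among the 9375 probe sets with a wild-type mean from 4.5 to 5.5, where *Slc25a31* lies, 99.9% had a smaller one as well. The 2lox/2lox hearts spanned 2.29-fold. In each genotype the heart with high *Xist* had the lowest *Slc25a31*, at 7.58 and 4.10, although wild-type heart 5, with low *Xist*, read 4.13. 2lox/2lox heart 3 also had the lowest 3′ to 5′ difference of its group, 0.33, so sex and RNA quality cannot be told apart there. In bulk RNA, more cells that express a gene and more RNA per cell cannot be told apart.

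**Figure D1:**
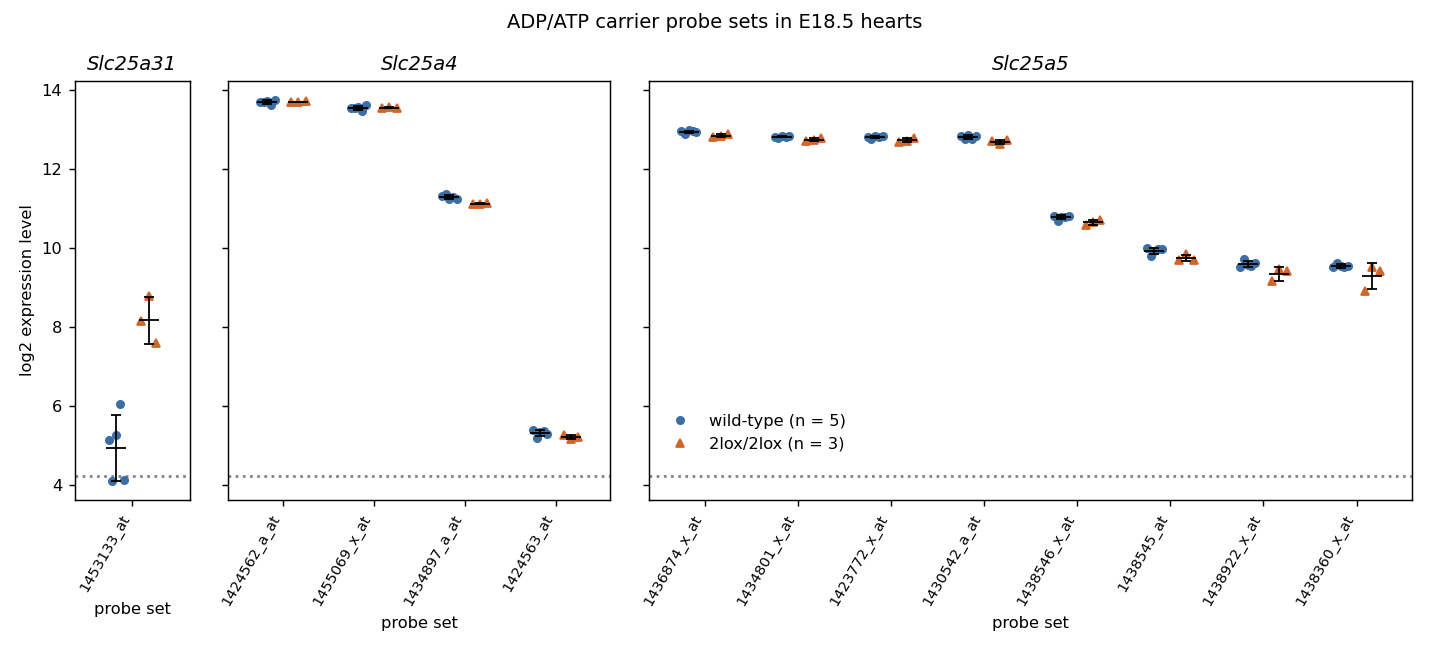
Log2 expression level of the 13 ADP/ATP carrier probe sets in each heart, 1 panel per gene. Points are hearts (circles, 5 wild-type; triangles, 3 2lox/2lox), bars give group means with SD, and the dots across mark 4.21, the lower quartile on these arrays. *Slc25a31* rises from a wild-type range of 4.10 to 6.04 to 7.58 to 8.78 in the 2lox/2lox hearts, while the probe sets of the other 2 genes differ by at most 0.27 between the group means.

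*Slc25a4*, the heart and muscle form, read close to the top of the array scale and differed little between the genotypes. Its brightest probe set, 1424562_a_at, read 13.68, 13.68 and 13.70 in 2lox/2lox and from 13.62 to 13.73 in the wild-type hearts. The groups overlapped fully. The log2 difference was -0.00 (standard error 0.05, limma adjusted p = 0.991), with a 95% interval from -0.12 to 0.11. The second probe set, 1455069_x_at, had 0.01 (limma adjusted p = 0.983).

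The dimmer *Slc25a4* probe sets did not give the same picture. 1434897_a_at read 11.10, 11.11 and 11.13 in 2lox/2lox and 11.24 to 11.35 in wild-type hearts, with no overlap of the groups. Its log2 difference was -0.17 (standard error 0.05, 95% interval -0.28 to -0.05), which did not pass the threshold (limma adjusted p = 0.311). 1424563_at read only 5.17 to 5.40 in all hearts, near the array median of 5.07, and had -0.10 (limma adjusted p = 0.620). None of the 4 probe sets passed, and 1, 1434897_a_at, had an unadjusted limma p under 0.05. Of all probe sets 10.9% had such a p, and 4.94% had it with a lower level in the 2lox/2lox hearts. The groups lay apart with 2lox/2lox lower in 2.71% of all probe sets. The highest value on any array was 14.55, and whether the brightest probe sets still responded in proportion to RNA at this level was not tested.

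*Slc25a5*, the broadly expressed form, had slightly lower values in the 2lox/2lox hearts in all 8 of its probe sets, but none passed the test. The brightest, 1436874_x_at, read 12.81, 12.82 and 12.88 in 2lox/2lox hearts 1, 2 and 3 and 12.94, 12.89, 12.97, 12.95 and 12.93 in wild-type hearts 1 to 5. The groups lay just apart, with 12.88 as the highest 2lox/2lox and 12.89 as the lowest wild-type value. The log2 difference was -0.10 (standard error 0.05, limma adjusted p = 0.537), with a 95% interval from -0.21 to 0.02, or a change of -6.61%.

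Among the other *Slc25a5* probe sets, those with a mean above 12 had log2 differences from -0.12 to -0.07 and those below 12 from -0.27 to -0.13. The 2lox/2lox hearts lay below all wild-type hearts in 4 of the 8 and overlapped them in the rest. Of all probe sets 2.71% lay apart in this direction, and 6.11% in either. The limma adjusted p ranged from 0.320 to 0.670, and 3 of the 8 had an unadjusted limma p under 0.05. Of all probe sets 10.9% had such a p, and 4.94% had it with a lower level in the 2lox/2lox hearts. With the mean of the 8 probe sets in place of the brightest, a choice made after the data were seen, the difference was -0.15 (limma adjusted p = 0.343). These 8 values are not separate pieces of evidence, because they read 1 transcript in the same hearts. The _x_at ending of 6 of them marks probes that can also bind other sequences, and the RefSeq table lists 2 pseudogenes that carry the *Slc25a5* name, so signal from such copies cannot be told from *Slc25a5*.

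2lox/2lox heart 1 carried much of the lower values in the dimmest *Slc25a5* probe set, 1438360_x_at. It read 8.90 there, against 9.52 and 9.41 in 2lox/2lox hearts 2 and 3 and 9.50 to 9.62 in the wild-type hearts. Without that heart the log2 difference of this probe set went from -0.27 to -0.08 and that of 1438922_x_at from -0.25 to -0.15. After adding the 3′ to 5′ RNA quality measure to the fit, 4 of the 8 probe sets moved by over 1.5 times, 1438360_x_at to -0.13, 1438546_x_at from -0.13 to -0.07, 1423772_x_at from -0.08 to -0.04 and 1434801_x_at from -0.07 to -0.04. All 8 stayed below 0 in that fit, with the brightest at -0.07. Since *Slc25a5* lies on the X chromosome, the hearts with high *Xist* were also compared with the rest of their group. In the brightest probe set 2lox/2lox heart 3 was the highest of its group at 12.88 and wild-type heart 2 the lowest of its group at 12.89, so the pair did not differ from the other hearts in a shared direction.

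The balance between the forms was next compared within each heart. Different probe sets bind their targets unequally, so the difference between 2 genes is not a ratio of molecules, and only its change between hearts is described. *Slc25a31* minus *Slc25a4* was -5.54, -4.90 and -6.12 in 2lox/2lox and -9.61 to -7.58 in the wild-type hearts, and the means were 3.24 log2 units, or 9.42-fold, apart. *Slc25a31* minus *Slc25a5* was -4.67, -4.04 and -5.30 in 2lox/2lox and -8.80 to -6.90 in the wild-type hearts, a change of 3.33 units. Both changes are set almost wholly by *Slc25a31* and add no separate evidence.

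The balance of *Slc25a4* and *Slc25a5* does not involve the testis form and was tested. *Slc25a4* minus *Slc25a5* was 0.87, 0.86 and 0.82 in 2lox/2lox hearts 1, 2 and 3. In wild-type hearts 1 to 5 it was 0.74, 0.80, 0.75, 0.67 and 0.81. All 3 2lox/2lox hearts lay above all 5 wild-type hearts, although by a small margin. Among single genes 5.97% lay apart in either direction, and the share among differences between 2 genes was not computed. The mean was 0.85 ± 0.03 (SD, n = 3) against 0.76 ± 0.05 (SD, n = 5), a shift of 0.10 log2 units, or 1.07-fold, toward *Slc25a4* (exact permutation test over the 56 splits of the hearts, two-sided, p = 0.0357, the smallest this design can give). With the mean of all probe sets of each gene the shift was 0.08, and with quantile normalization it was 0.11, each with an exact permutation p of 0.0357. With any 1 heart left out the shift was 0.08 to 0.11, but the exact permutation p was then 0.0571 to 0.0952, since fewer hearts cannot reach 0.05. The direction depends on the *Slc25a4* probe set. 1434897_a_at had a log2 difference of -0.17, a larger decrease than the -0.10 of the brightest *Slc25a5* probe set, so with it the balance moves the other way. The RNA quality measure was not added to this comparison, and whether the brightest probe sets respond in proportion was not tested.

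**Figure D2:**
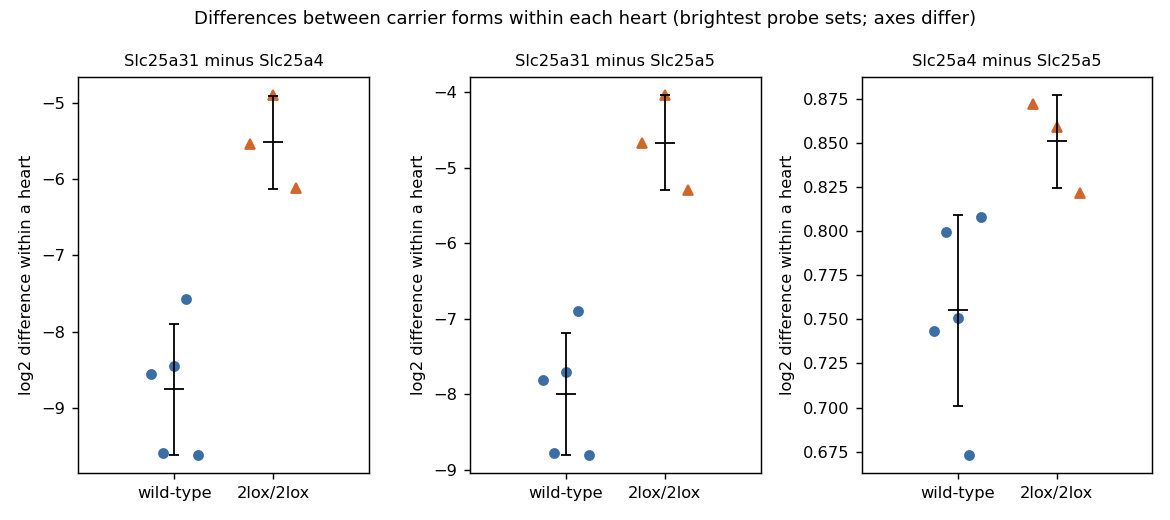
Log2 difference between pairs of carrier genes within each heart, brightest probe set of each gene, with a separate axis per panel. Points are hearts (circles, 5 wild-type; triangles, 3 2lox/2lox) and bars give group means with SD. The 2lox/2lox hearts lie above all wild-type hearts in the 3 panels, by a wide gap in the panels with *Slc25a31* and by a narrow one in the panel of *Slc25a4* and *Slc25a5*, where the means are 0.85 and 0.76.

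The other members of the mitochondrial carrier family, which move phosphate, amino acids, citrate and other small molecules across the inner membrane, had no member past the test. Of 45 further family genes with a probe set of their own, each in its brightest probe set, none passed the limma test in either direction, while 7 had an unadjusted limma p under 0.05 (10.2% of all genes did). In the same fit 0.148% of the 18194 genes passed. The median log2 difference was -0.03, against -0.01 over all genes, and the values ran from -0.23 to 0.43. *Slc25a23*, an ATP-Mg/phosphate carrier, had 0.43 (limma adjusted p = 0.402), with overlapping groups. *Slc25a13*, the aspartate/glutamate carrier citrin, read 9.30 to 9.50 in 2lox/2lox and 9.54 to 9.80 in the wild-type hearts, with -0.23 (limma adjusted p = 0.327). *Slc25a30*, related to the uncoupling proteins, had 0.34 (limma adjusted p = 0.362). *Slc25a37* (mitoferrin, the iron carrier of erythroid cells) had 0.37 with a standard error of 0.49. The 2lox/2lox hearts lay wholly outside the wild-type range in 2 of the 45 genes, *Slc25a13* and *Slc25a2*, where 2.81% of all genes lay apart in this direction and 5.97% in either.

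**Figure D3:**
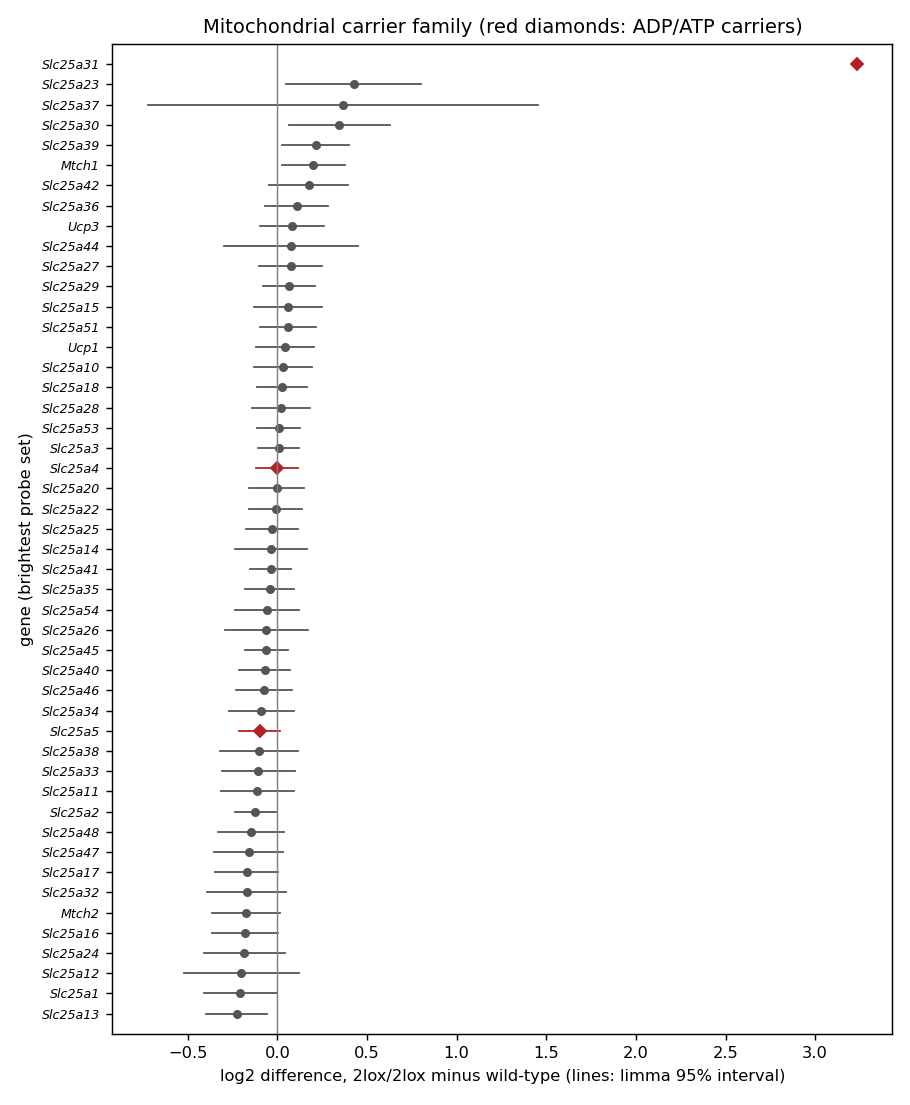
Log2 difference, 2lox/2lox minus wild-type, of 48 mitochondrial carrier family genes in their brightest probe sets. Lines are limma 95% intervals, red diamonds are the 3 ADP/ATP carriers, and *Slc25a31*, chosen on its difference, carries no interval. *Slc25a31* stands at 3.23, and no other gene lies beyond 0.43 in either direction.

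Proteins that work beside the carriers showed no transcript difference past the test. Of 20 measured partners in adenine nucleotide exchange, none passed the limma test, and the median log2 difference was 0.05. An unadjusted limma p under 0.05 was found for 2 of the 20, against 10.2% of all genes. *Slc25a3*, which brings in the phosphate that ATP synthesis needs, read 12.91 to 12.93 in 2lox/2lox and 12.85 to 12.96 in the wild-type hearts, a log2 difference of 0.01 (limma adjusted p = 0.980). *Vdac1*, the pore of the outer membrane, had 0.05 (limma adjusted p = 0.783). *Hk2*, a hexokinase that can dock on that pore, read 10.07 to 10.43 in 2lox/2lox and 9.76 to 10.01 in the wild-type hearts, with 0.28 (limma adjusted p = 0.317). *Hk1*, *Ak3* and *Ak4*, the last 2 being adenylate kinases of mitochondria, had 0.24, 0.20 and 0.20. *Ckmt2*, the mitochondrial creatine kinase of muscle, had -0.18 (limma adjusted p = 0.820). Of 18 measured genes of the ATP synthase and its assembly, none passed and 1, *Atpaf2*, an assembly factor gene, had an unadjusted limma p under 0.05, with a log2 difference of -0.25 (limma adjusted p = 0.414). The median of these genes was 0.00.

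*Slc25a31* is one of several energy metabolism genes with a separate copy for the testis, and the other copies were looked at as a list. Of 17 measured members none passed the limma test, and the median log2 difference was -0.05. An unadjusted limma p under 0.05 was found for 3 of the 17, against 10.2% of all genes. *Cyct*, the testis cytochrome c, read 4.69, 5.54 and 4.77 in 2lox/2lox hearts 1, 2 and 3 and 3.88 to 4.23 in the wild-type hearts. The groups did not overlap, which held with 2lox/2lox higher for 3.16% of all genes, and heart 2 was the highest, as it was for *Slc25a31*. The log2 difference was 0.87 (standard error 0.17, limma adjusted p = 0.155). Without 2lox/2lox heart 3 it was 0.99 (limma adjusted p = 0.0424), and with each other heart left out the limma adjusted p was 0.183 to 0.339. In the fit without 2lox/2lox heart 3, 797 probe sets were called over the whole array, against 36 with all hearts. The 2lox/2lox hearts left in it are those with the high 3′ to 5′ differences of 0.52 and 0.50.

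*Cox6b2*, the testis form of a cytochrome c oxidase subunit, read 7.89 to 7.97 in 2lox/2lox and 7.34 to 7.84 in the wild-type hearts, with a log2 difference of 0.29 (limma adjusted p = 0.356). *Ldhc*, the testis lactate dehydrogenase, lay the other way, at 4.34 to 4.52 against 4.53 to 4.62, with -0.14 (limma adjusted p = 0.438). *Pgk2* and *Gapdhs*, the sperm forms of glycolytic enzymes, differed by -0.17 (limma adjusted p = 0.465) and -0.09 (0.677 by the same test). *Pdha2*, of the pyruvate dehydrogenase, had 0.04 (limma adjusted p = 0.945). In 12 of the 17 genes the mean level lay below the array median of 5.07, where a small change would be hard to see.

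**Figure D4:**
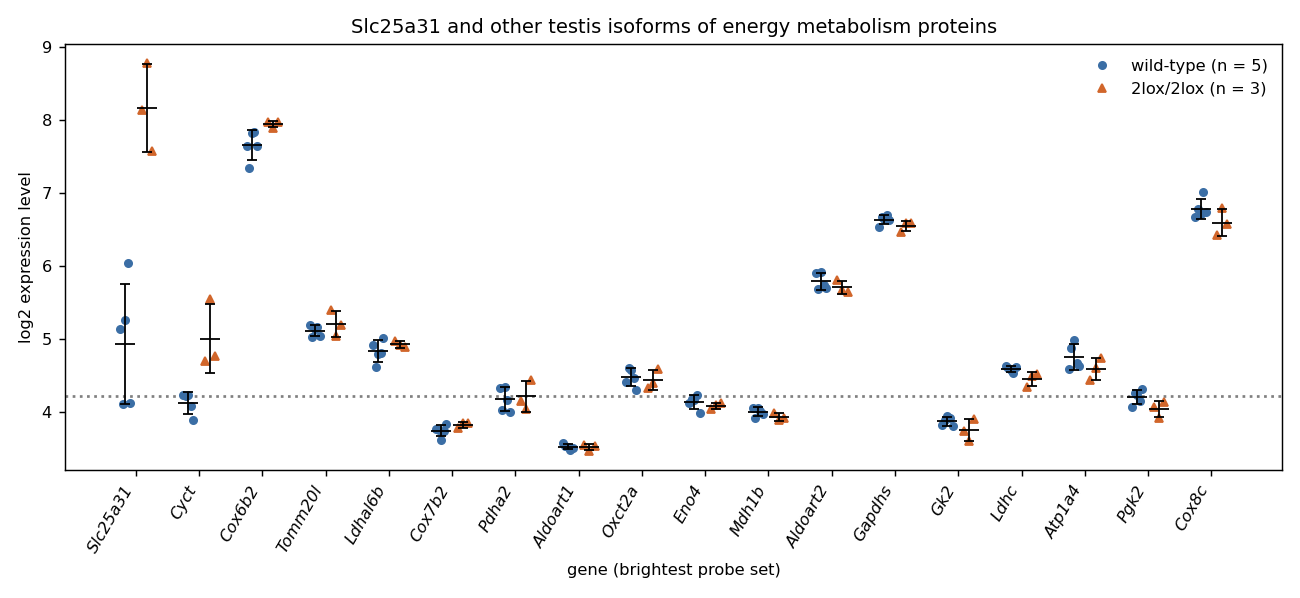
Log2 expression level of *Slc25a31* and of 17 other testis isoforms of energy metabolism proteins in each heart. Points are hearts (circles, 5 wild-type; triangles, 3 2lox/2lox), bars give group means with SD, and the dots across mark 4.21, the lower quartile on these arrays. Beside *Slc25a31*, the groups lie apart with 2lox/2lox higher in *Cyct* and *Cox6b2*, and *Cyct* reaches 5.54.

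The genes whose profile over the 8 hearts was most like that of *Slc25a31* were found by the root mean square distance between log2 levels centred on the wild-type mean, among 18194 genes. This measure uses the same difference that brought *Slc25a31* into view, so the list is a description. The nearest was *Ddx4*, the germ cell helicase Vasa, at a distance of 0.56 log2 units, with 6.70, 7.68 and 6.39 in 2lox/2lox hearts 1, 2 and 3 and 3.75 to 4.34 in the wild-type hearts. *Fmr1nb*, a testis antigen gene, followed at 0.76, with 7.66, 8.26 and 7.79 against 4.92 to 6.02. A gap then came before *Rpl39l*, a testis ribosomal protein gene, at 1.22, *Rnf17*, which encodes a Tudor protein of germ granules, at 1.25, and *Meioc*, a meiosis gene, at 1.27. *Tnni2*, the fast skeletal troponin I, *Tesc*, a calcium-binding protein gene, and *Mid1*, a microtubule-associated ubiquitin ligase gene, closed the list at 1.29, 1.30 and 1.34. In 6 of these 8 genes 2lox/2lox heart 2 was the highest heart, as in *Slc25a31*. The genes were picked for likeness over these same hearts, so this count is partly built in and is no separate evidence. The distance also depends on the size of the genotype difference, and the share of all genes highest in that heart was not computed.

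**Figure D5:**
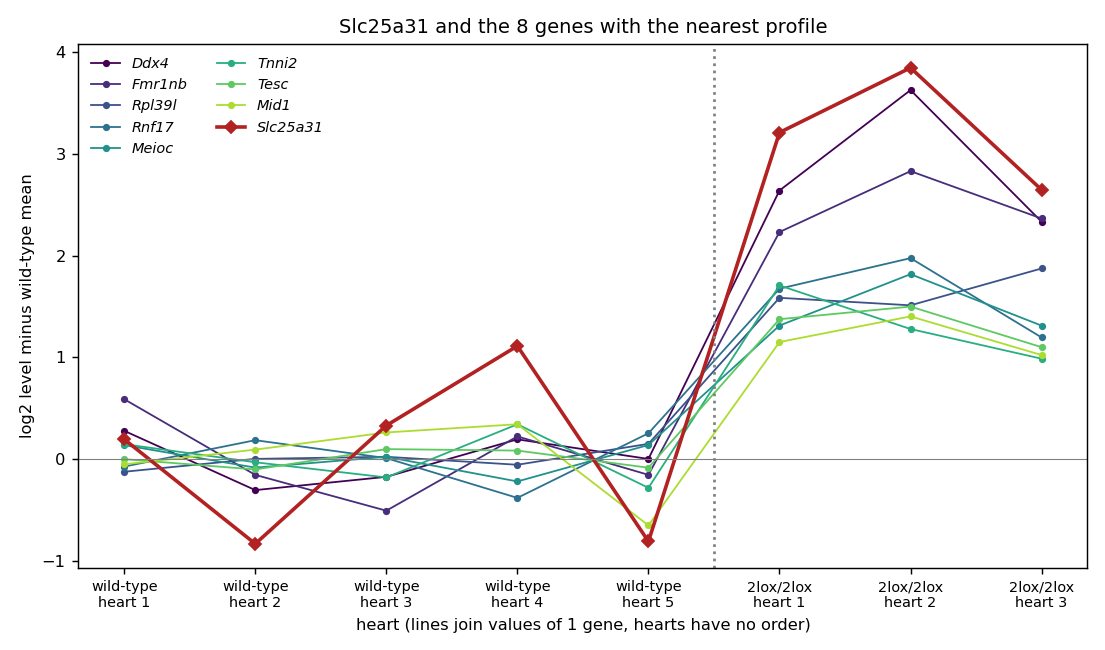
Log2 level minus the wild-type mean in each heart for *Slc25a31* (red diamonds) and the 8 genes with the nearest profile. Each line joins the values of 1 gene and hearts have no order. *Slc25a31* and *Ddx4* lie at a distance of 0.56 log2 units over the 8 hearts, whereas *Slc25a31* alone reaches over 1 log2 unit above the mean in wild-type heart 4.

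The levels of marker genes were set beside the *Slc25a31* values. Cardiomyocyte markers, 14 of 14 measured, had a mean log2 level of 13.06 to 13.17 in wild-type and 13.12 to 13.20 in 2lox/2lox hearts. None passed the limma test, and 3 had an unadjusted limma p under 0.05, against 10.2% of all genes. Of 18 listed germ cell and spermatid markers 16 were measured, and none passed (0 at an unadjusted limma p under 0.05). The list was written with the rise of *Ddx4* and other germ line genes known and leaves them out, so its count says nothing of those genes. Their mean level was 4.69 to 4.83 in the wild-type hearts and 4.70 to 4.80 in the 2lox/2lox hearts. *Dazl*, which marks germ cells of both sexes, read at most 4.15, below the lower quartile of all values, in every heart. *Prm1*, the sperm protamine, had group means of 6.02 in wild-type and 5.99 in 2lox/2lox hearts. Markers of gonad somatic cells (11 of 12 measured) and of pluripotent cells (10 of 10) had none past the limma test (0 at an unadjusted p under 0.05 in either list). The gonad list had mean levels of 5.19 to 5.27 in 2lox/2lox and 5.10 to 5.31 in wild-type hearts, and the pluripotent list 4.61 to 4.74 and 4.64 to 4.76.

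Myeloid markers had higher values in the 2lox/2lox hearts across the list. All 17 were measured and all 17 had a positive log2 difference, with a median of 0.38. *Lgals3* and *Cybb* passed the test, with log2 differences of 0.88 and 0.83 (limma adjusted p = 0.0240 and 0.0346), where 0.11% of all genes were called higher. The list was written with earlier results of these data known and includes both genes, so their calls are no separate evidence. An unadjusted limma p under 0.05 was found for 11 of the 17, against 10.2% of all genes, and in 7 every 2lox/2lox heart lay above every wild-type heart, against 3.16%. The mean level of the list was 6.75 to 6.99 in 2lox/2lox and 6.25 to 6.62 in wild-type hearts. With the 3′ to 5′ RNA quality measure in the fit neither gene was called, while the median of the list was 0.48 and the calls over the whole array went from 36 to 9. No myeloid marker was called with 2lox/2lox heart 1 or 2 or wild-type heart 1, 2 or 3 left out, where the list median was 0.35 to 0.41, and without 2lox/2lox heart 3 the median was 0.24 with 3 markers called.

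Of 18 skeletal muscle markers 1 was called, *Tnni2*, which was higher by 1.32 (limma adjusted p = 0.0240), where 0.11% of all genes were called higher. An unadjusted limma p under 0.05 was found for 5 of the 18, against 10.2% of all genes. In 2 every 2lox/2lox heart lay above every wild-type heart, against 3.16%. In the list 11 of the 18 differences were positive, the median was 0.06 and the values ran from -0.42 to 1.32. Its mean level was 6.33 to 6.43 in 2lox/2lox and 6.11 to 6.39 in wild-type hearts, which overlap. *Tnni2* was not called with the RNA quality measure in the fit, nor with any of the same 5 hearts left out. This list too was written with earlier results of these data known, so the call of *Tnni2* is no separate evidence. The part of these markers in the *Slc25a31* values was not tested. With the 3′ to 5′ RNA quality measure in the fit, the *Slc25a31* difference was 2.86.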

How the data were processed

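RNA from E18.5 hearts was hybridized to Affymetrix Mouse430 arrays. The deposited values are log2 expression levels per probe set, made by the authors. The nearly equal array medians are the sign that arrays were normalized to each other. In the submitters' processing notes limma appears with no version, and the summarization and background methods are not given in the sources used here. Dim probe sets depend most on these steps. No further normalization or filter was applied. Arrays have no read depth, and their number limits the precision.

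Groups came from the sample labels. Here limma 3.58.1 under R 4.3.3 (lmFit, eBayes) estimated 2lox/2lox minus wild-type per probe set over all 8 hearts. Two-sided p-values were adjusted by Benjamini-Hochberg across the 45101 probe sets and called under 0.05. P-values measure only the spread between these samples. Probe sets were named by the platform annotation, with symbols brought up to date in a RefSeq table of GRCm38.p6 (99.4% of 34958 probe sets with 1 gene matched). A gene was represented by its brightest probe set. The members and gene lists were chosen with earlier results of these data known. By rule the text names the members, list genes past the threshold or with the smallest p, the highest or defining markers, and the 8 genes nearest to *Slc25a31*. *Slc25a37*, *Pdha2*, *Gapdhs* and some partners were named after their values were seen. Lists were described by counts and medians, with no set test. Scripts were tested on simulated data. A protein comparison was not analysed here. Alternatives were eBayes trend or robust moderation, quantile normalization, centring on array medians, 2 ways to drop dim probe sets, array weights, covariates for sex and for the 3′ minus 5′ difference, the replicate number as a block, each heart left out, gene means, and values floored at the lower quartile. Gene means over all genes were added after the data were seen.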

Additional observations from a re-analysis of the deposited data

Results flagged for a closer look

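In the *Slc25a5* probe set 1423772_x_at, wild-type heart 2 read 12.75, apart from the other wild-type hearts at 12.80 to 12.82. This gap was wide for a group of 5, and it was the only one among 37 sets of wild-type values examined. Chance gives about 1 in 20, so 1 among 37 is no more than chance would give. Wild-type heart 2 is the wild-type heart with high *Xist*, and a link of the gap to sex was not tested.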

How the results depend on the processing

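Under the alternatives run on all hearts the *Slc25a31* difference was 2.86 to 3.38, and 2.93 to 3.53 with each heart left out. *Slc25a31* minus *Slc25a4* was then 2.93 to 3.54 and *Slc25a31* minus *Slc25a5* 3.02 to 3.65. No probe set of *Slc25a4* or *Slc25a5* passed under any alternative in which it was fitted, nor did the mean over the probe sets of either gene, and all fitted *Slc25a5* values stayed below 0. The *Slc25a4* value lies so near 0 that its sign turned, to 0.0090 with quantile normalization, and it was -0.020 to 0.0085 with each heart left out. 1455069_x_at turned to -0.00085 with the 3′ minus 5′ covariate and was -0.013 to 0.024 with each heart left out. The number of probe sets called was 9 with that covariate and 17 to 797 with each heart left out (among 2lox/2lox hearts, 797 when heart 3 and 20 when heart 1 was dropped, and among wild-type hearts, 17 when heart 1 and 23 when heart 2, 3 or 4 was dropped).

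Deviations from the group mean were hardly correlated between hearts with the same replicate number (correlation 0.01, -0.08 and -0.05 for numbers 1, 2 and 3). Such values cannot tell whether the numbers mark litters or batches, which the sources do not state. With the replicate block 0 probe sets passed, *Slc25a31* differed by 3.33 and *Slc25a5* by -0.10, and the *Slc25a4* minus *Slc25a5* shift within numbers 1 to 3 was 0.0862 (exact permutation p = 0.250, the smallest for 3 pairs), against 0.0753 to 0.110 with each heart left out. Calls among skeletal muscle markers were 0 with the replicate block or the 3′ minus 5′ covariate and 0 to 1 with each heart left out. Calls among myeloid markers were 1 with quantile normalization, median centring, the filter on the array median or the sex score, 0 with the replicate block or the 3′ minus 5′ covariate, and 0 to 3 with each heart left out. Testis isoforms had 0 to 1 calls. The causes were not tested.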

Other observations

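Of the testis isoforms, 9 of the 17 and *Slc25a31* were also set beside a somatic counterpart within the same heart, a pairing made after the values were seen and given with no test. *Cyct* minus *Cycs*, the somatic cytochrome c gene, was -8.40 to -7.67 in 2lox/2lox and -9.26 to -8.84 in the wild-type hearts, a change of 0.88, while *Cycs* itself had a log2 difference of -0.00 (limma adjusted p = 0.993). *Cox6b2* minus *Cox6b1*, the broadly expressed subunit, changed by 0.25 with overlapping ranges, -5.63 to -5.48 against -6.13 to -5.54. *Ldhc* minus *Ldhb*, the heart lactate dehydrogenase gene, had -0.20, *Pgk2* minus *Pgk1* -0.15 and *Gapdhs* minus *Gapdh* -0.11. *Slc25a31* minus *Slc25a4* had 3.24, and the other pairs examined lay from -0.22 to 0.20.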
